A study of Mus musculus with 16 samples.

Results

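Afp, the gene of alpha-fetoprotein, was examined in CT26 cells together with other genes that are active in fetal tissue or imprinted (H19, Igf2, Dlk1, Gpc3, Igf2bp1 and Igf2bp3) and with the Afp repressors Zhx2 and Zfhx3, 9 genes in all. Every probe set annotated to 1 of these symbols alone was taken, which gave 27 probe sets for 8 genes among the 45037 probe sets and 18193 genes of the arrays: 5 for Afp, 2 for Igf2, 2 for Dlk1, 1 for Gpc3, 1 for Zhx2, 6 for Zfhx3, 4 for Igf2bp1 and 6 for Igf2bp3. The H19 probe set, 1448194_a_at, is annotated to H19 and Mir675 together and is given by its identifier only. Afp was picked because of its low signal in shSep15 cells, and was thus chosen by the shSep15 and control values themselves, so that its values in shSep15 and control cells, and in each comparison that uses those arrays, are a description without a test.

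CT26 is a colon carcinoma line of BALB/c mice. All cells carried the pU6-m3 vector in stably transfected form, selected with hygromycin, either empty (control) or with a hairpin against the 15 kDa selenoprotein Sep15 (shSep15), against thioredoxin reductase 1 (shTR1) or with both (shTR1/shSep15). Messenger RNA was measured on 4 Affymetrix arrays per line, 16 in all, from different mRNA samples. The sources do not say which clones the arrays came from or whether the samples were grown as separate cultures, so that p-values measure the spread between mRNA samples. Effects of a hairpin and of the transfected line that carries it cannot be told apart in any comparison. Values are log2 signals of the Robust Multi-Array Analysis, and a difference of 1 is a doubling of the signal.

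Alpha-fetoprotein is the main plasma protein of the fetus, made in yolk sac and fetal liver, and is a relative of albumin. Its gene is shut down in liver after birth, with Zhx2 and Zfhx3 among the factors that repress it, and is switched on again in liver tumours, yolk sac tumours and some gut tumours. H19 and Igf2 are neighbouring imprinted genes of fetal growth, Dlk1 is an imprinted membrane protein related to Notch ligands, Gpc3 is a cell surface glypican, and Igf2bp1 and Igf2bp3 are RNA-binding proteins of embryonic tissue that return in many cancers.

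The sequences that define the lines are the sites the hairpins match, and the Afp promoter is shown since Afp is the member whose signal separated the lines. Sites of the hairpins, 5′ to 3′, as the labels give them:
shSep15: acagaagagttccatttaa
shTR1: atcgctctgacaagcttattag
The Afp promoter of RefSeq (GRCm38.p6, plus strand, chr5:90490464-90490713) covers the 250 bases before the annotated start, with capitals for the motif TATAAAA:
Afp: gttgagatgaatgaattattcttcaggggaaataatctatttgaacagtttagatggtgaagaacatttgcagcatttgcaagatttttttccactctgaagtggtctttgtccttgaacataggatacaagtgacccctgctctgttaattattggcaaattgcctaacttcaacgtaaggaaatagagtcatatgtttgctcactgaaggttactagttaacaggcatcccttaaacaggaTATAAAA

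The motif searched was TATAAAA on the sense strand, which lies at −7 to −1 counted from the annotated start of Afp. Of 32851 promoters of the same length, 3.02% hold it. The promoters listed for Igf2, Dlk1, Gpc3, Zfhx3 and Igf2bp3 do not, and that of Krt20, looked at after its profile was seen to be like that of Afp, does. Of the other genes searched beside Krt20, Krt18 and Col3a1 do not hold it and Pdgfrb has no entry. A match of letters is a description and shows no binding. H19, Zhx2 and Igf2bp1 have no entry.

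Selenof, the gene of Sep15, was at 8.02 to 8.29 in shSep15 cells and 7.34 to 7.86 in shTR1/shSep15 cells, against 10.78 to 11.57 in control cells. Txnrd1, the gene of thioredoxin reductase 1, was at 7.18 to 7.91 in shTR1/shSep15 cells against 9.45 to 10.39 in control cells, while the arrays labelled shTR1 held 7.84, 10.57, 7.89 and 9.71. The library labelled shTR1 replicate 2 was above all control arrays and that labelled replicate 4 within their range, so that both go against their label. Control replicate 2 stood apart as well, with a Gapdh control signal of 12.12 against 13.04 to 13.26 in the other control arrays and the lowest weight of all arrays (0.244). Where a call on a member or on a gene past the threshold changed without these arrays, both values are given.

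Afp separated the lines widely. Its brightest probe set, 1416645_a_at, read 9.70, 9.58, 9.47 and 9.31 in control cells. In shSep15 cells it read 3.67, 2.71, 3.59 and 3.64. All shSep15 arrays lay at least 5.64 below the lowest control array. Afp was at 10.07, 10.25, 10.12 and 10.28 in shTR1/shSep15 cells, which carry the same Sep15 hairpin, and each of these arrays lay above the highest control array, by at least 0.38. The arrays labelled shTR1 held 11.14, 6.93, 6.76 and 8.57. These 4 shTR1 values spread over more than the other lines, replicate 1 being the highest Afp value of all arrays and replicates 2, 3 and 4 lying below every control array.

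The order of the means was shTR1/shSep15 (10.18 ± 0.10, SD, n = 4), control (9.51 ± 0.17, SD, n = 4), shTR1 (8.35 ± 2.03, SD, n = 4) and shSep15 (3.40 ± 0.46, SD, n = 4). Control and shTR1 values overlapped, and the other neighbours in the order did not. Of the 5 Afp probe sets, 3 lay wholly below control in shSep15 cells, where 2.48% of all probe sets did, and 3 wholly above control in shTR1/shSep15 cells, where 3.12% did. Both counts describe what Afp was chosen for or share its control arrays. The difference from control was −6.11 in shSep15 cells, a 69.2-fold lower signal, with a standard error of 0.67. The shSep15 mean lies near the lower quartile of all probe sets (3.35) and was not shown to be above background, so that this ratio of signals is at best a lower bound on the ratio of mRNA. The difference from control was −1.17 in the arrays labelled shTR1 and 0.67 in shTR1/shSep15 cells, both with the same standard error. That error pools the spread of all 4 lines, whose SDs ran from 0.10 to 2.03, and does not measure the spread of the lines compared. Both hairpins together gave a value 7.95 above the sum of the differences of each (standard error 0.95), a value with the same limit. In a bulk sample, fewer cells with Afp mRNA and less Afp mRNA per cell cannot be told apart.

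**Figure D1:**
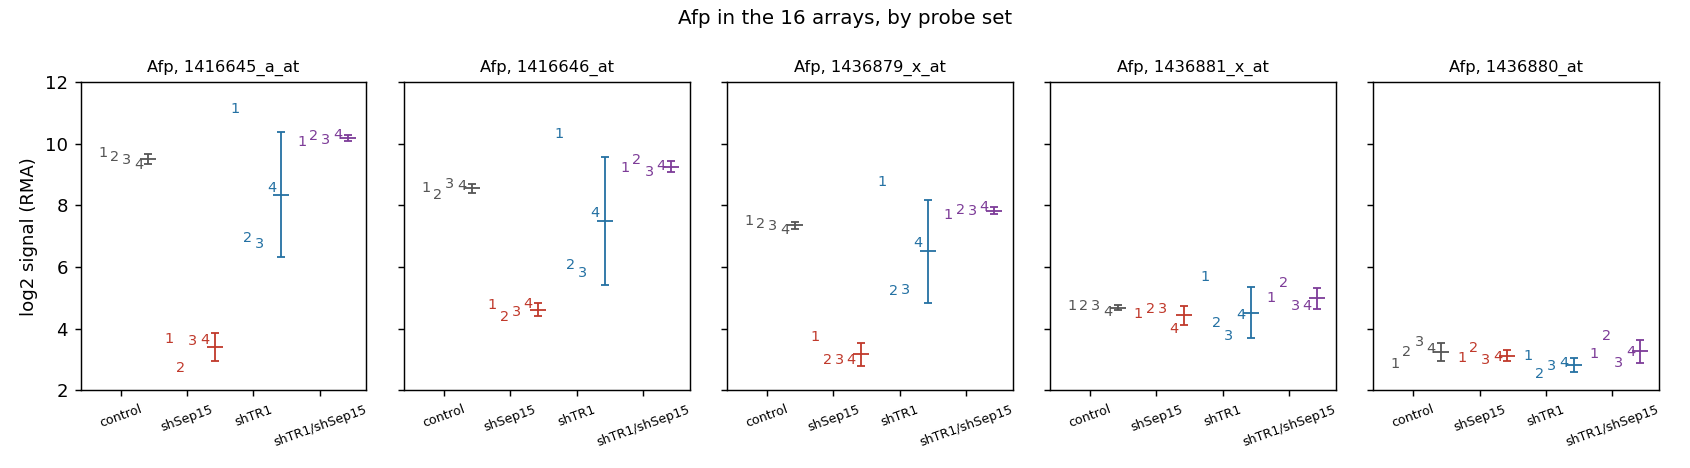
Log2 signal of each Afp probe set (vertical axis) in the 4 lines (horizontal axis). Digits are the replicate numbers of single arrays, and the bar beside them is the mean with its SD (n = 4). In the first 3 panels the shSep15 arrays lie below and the shTR1/shSep15 arrays above all control arrays, and shTR1 replicate 1 is the highest array.

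A second probe set, 1416646_at, held 8.56, 8.33, 8.70 and 8.62 in control cells and 4.75, 4.36, 4.54 and 4.81 in shSep15 cells. It held 10.34, 6.07, 5.82 and 7.74 in shTR1 arrays and 9.22, 9.48, 9.08 and 9.27 in shTR1/shSep15 cells. The lines stood in the same order, with shTR1 replicate 1 again the highest array. The probe set 1436879_x_at read 7.21 to 7.49 in control cells, 2.96 to 3.72 in shSep15 cells, 5.22 to 8.77 in shTR1 arrays and 7.69 to 7.96 in shTR1/shSep15 cells. Over the 16 arrays these 2 probe sets correlated with the brightest one at r = 0.98 and 0.99, which describes measures of the same gene in the same libraries.

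The remaining Afp probe sets gave another picture. The probe set 1436881_x_at held 4.55 to 4.74 in control cells, 3.98 to 4.65 in shSep15 cells, 3.77 to 5.69 in shTR1 arrays and 4.73 to 5.48 in shTR1/shSep15 cells. Its difference of −0.25 between shSep15 and control cells compares with −3.94 and −4.19 in the probe sets of the preceding paragraph. The probe set 1436880_at was dim, at 2.52 to 3.77 over all arrays. They correlated with the brightest probe set at r = 0.56 and 0.19. Not all probe sets that carry the Afp symbol therefore show a large fall in shSep15 cells. The control means were 3.25 on 1436880_at, under the lower quartile of all probe sets (3.35), and 4.68 on 1436881_x_at. A fall as large as on the bright probe sets could not show there. The mean over the 5, which includes these dim probe sets, differs by −2.92 between shSep15 and control cells.

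The comparison of shTR1 with shTR1/shSep15 cells sets the line with the TR1 hairpin alone beside the line with both hairpins. It is the comparison whose means use no array that chose Afp. Txnrd1 was not equally low in the 2 lines, at 7.84 to 10.57 in shTR1 arrays and 7.18 to 7.91 in shTR1/shSep15 cells. Differences between them therefore do not isolate what the Sep15 hairpin adds. Afp was lower in the arrays labelled shTR1 by 1.84 on average (−1.84, standard error 0.67), and the lines overlapped. This did not pass the test (adjusted p = 0.341, limma), nor an exact two-sided permutation test of the 4 against 4 arrays (p = 0.143). The limma test pools the spread of all 4 lines, so that the arrays that chose Afp enter it there, while the permutation test uses the compared lines alone. The SDs were 2.03 in shTR1 and 0.10 in shTR1/shSep15 cells. The other bright probe sets differed by −1.77 (adjusted p = 0.366, limma) and −1.32 (adjusted p = 0.426, limma). The call depended on the shTR1 arrays. Without shTR1 replicate 1, which has the highest Afp value and a low Txnrd1 signal, the difference was −2.77 (adjusted p = 0.00522, limma). With weights for the arrays it was −2.30 (adjusted p = 0.0196, limma). Without replicates 2 and 4, which go against their label in Txnrd1, it was −1.24 (adjusted p = 0.906, limma), and the difference between shTR1 and control cells was then −0.57.

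The shTR1 arrays also differed among themselves in other genes. Usp18, an interferon-induced protease, held 4.68, 10.47, 6.40 and 11.73 in shTR1 replicates 1 to 4, against 3.73 to 4.996 in control cells and 7.84 to 11.39 in shSep15 cells. Afp was highest in the shTR1 array with the lowest Usp18 signal, but it was lowest in replicate 3, whose Usp18 signal was the next lowest. Whether Usp18, Txnrd1 or the state of these samples bears on Afp was not tested.

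The known repressors of Afp passed the test in no comparison. Zhx2, a zinc finger and homeobox factor that silences Afp in adult liver, held 6.09, 7.99, 6.38 and 5.88 in control cells. It held 6.31, 6.23, 6.71 and 6.92 in shSep15 cells, 6.72, 6.44, 6.08 and 6.27 in shTR1 arrays and 6.08, 6.44, 6.24 and 6.50 in shTR1/shSep15 cells. The lines overlapped throughout, and control replicate 2 was the highest array. The difference between shSep15 and control cells was −0.04 (standard error 0.35, adjusted p = 0.976, limma). This value rests on control replicate 2, without which Zhx2 was higher in shSep15 cells by 0.43 (adjusted p = 0.355, limma) and the differences of the other lines from control turned from −0.21 and −0.27 to 0.26 and 0.20.

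Zfhx3, the AT motif-binding homeobox factor, was bright on its main probe set 1420649_at. It held 8.99, 8.73, 9.02 and 9.09 in control cells, 9.02, 8.48, 8.94 and 8.93 in shSep15 cells, 9.46, 8.77, 9.25 and 9.48 in shTR1 arrays and 9.07, 8.76, 8.88 and 8.93 in shTR1/shSep15 cells. All lines overlapped. Each of the 6 Zfhx3 probe sets had a higher mean in the shTR1 arrays than in control cells, by 0.23 to 0.81, and none passed the test (adjusted p = 0.384 to 0.548, limma). Without shTR1 replicates 2 and 4 the difference on 1420649_at was 0.40 (adjusted p = 0.665, limma). The probe set 1449947_s_at held 9.08, 8.77, 9.29 and 9.32 in shTR1 arrays against 8.74, 8.24, 8.74 and 8.65 in shTR1/shSep15 cells. These values did not overlap, with a gap of 0.024 between the lines (exact two-sided permutation p = 0.0286, the smallest that 4 against 4 arrays allow), and the difference of 0.52 did not pass the test over all probe sets (adjusted p = 0.357, limma).

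Single arrays moved several Zfhx3 probe sets together. On 1460006_at, replicate 2 was the lowest array of its line in control cells (6.004), shSep15 cells (5.99) and shTR1/shSep15 cells (6.37), and on 1420650_at likewise (5.78, 5.98 and 6.27). On these probe sets the spread of the control arrays (6.004 to 7.44 and 5.78 to 7.29) exceeded each difference between line means.

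The imprinted members were at low to middling signals. Igf2, the fetal insulin-like growth factor, read 5.06, 5.60, 5.96 and 6.11 in control cells and 5.45, 5.89, 5.26 and 5.18 in shSep15 cells on probe set 1448152_at. It read 5.61, 5.26, 5.26 and 5.40 in shTR1 arrays and 5.44, 6.07, 5.39 and 5.42 in shTR1/shSep15 cells. The differences from control were −0.23, −0.30 and −0.11 (standard error 0.22 each), and the lines overlapped. The other Igf2 probe set, 1415931_at, stayed at 2.82 to 3.42 in all arrays.

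Dlk1 was at 4.08 to 5.26 over the 16 arrays on 1442724_at and at 3.83 to 4.53 on 1449939_s_at. Its largest difference from control was −0.32 in the shTR1 arrays (standard error 0.22, adjusted p = 0.56, limma), with overlapping values. The probe set shared by H19 and Mir675 read 2.84 to 3.46 over all arrays. No detection calls were used, so that signals this low, near or under the lower quartile of 3.35 over all probe sets, do not tell absent from weakly present mRNA.

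Gpc3, which is secreted or membrane-bound and a serum marker of liver cancer beside alpha-fetoprotein, was the steadiest member. It read 3.77 to 4.04 in control cells, 3.79 to 3.90 in shSep15 cells, 3.70 to 4.06 in shTR1 arrays and 3.70 to 3.96 in shTR1/shSep15 cells. Its differences from control were −0.03, 0.05 and 0.02 (standard error 0.10 each). At a mean of 3.87, under the median of all probe sets (4.52), this small spread does not show steady expression.

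Igf2bp1, which binds Igf2 and other mRNAs, was the member next to Afp in its spread. Its main probe set, 1418761_at, held 8.69, 6.21, 7.84 and 8.37 in control cells. It held 6.97, 6.21, 7.45 and 7.67 in shSep15 cells and 7.52, 7.54, 7.78 and 6.91 in shTR1 arrays. The shTR1/shSep15 cells held 7.89, 7.92, 8.01 and 8.12, above every array of both single knockdowns. The control cells spanned the range of all other lines because of replicate 2.

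Between shSep15 and shTR1/shSep15 cells Igf2bp1 differed by −0.91 (standard error 0.43), without overlap (exact two-sided permutation p = 0.0286), and did not pass the test over all probe sets (adjusted p = 0.388, limma). The deviations of same-numbered arrays of these lines correlated at 0.10 to 0.47. With the replicate number as a block in a fit to the 2 lines alone, an alternative chosen after seeing the data, the same difference passed (adjusted p = 0.0298, limma). The block in the fit to all lines did not change the call. Between shTR1 and shTR1/shSep15 cells the difference was −0.55 (standard error 0.43, adjusted p = 0.681, limma), again without overlap (exact two-sided permutation p = 0.0286).

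Against control cells Igf2bp1 was lower by 0.70 in shSep15 cells (−0.70, adjusted p = 0.566, limma). Without control replicate 2 the difference was −1.22 (adjusted p = 0.0484, limma), and both hairpins together then gave 1.77 more than the sum of each (adjusted p = 0.0244, limma), against 1.25 with all arrays (adjusted p = 0.337, limma). The other Igf2bp1 probe sets did not share the separation of the lines. On 1449210_at and 1455223_at control replicate 2 was again the lowest array (4.996 and 4.22), and the differences between shSep15 and shTR1/shSep15 cells were −0.43 and −0.05, with overlap. On 1459825_x_at shSep15 and control cells did not differ in the mean, and control replicate 2 was not low (5.93).

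Igf2bp3, a relative of Igf2bp1, read 6.24 to 7.12 in control cells, 6.15 to 6.66 in shSep15 cells, 6.12 to 6.64 in shTR1 arrays and 6.37 to 6.93 in shTR1/shSep15 cells on 1433731_at. All lines overlapped, and the difference from control was −0.27 in shSep15 cells (standard error 0.19, adjusted p = 0.615, limma). Its other 5 probe sets were dim, between 2.43 and 4.71.

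**Figure D2:**
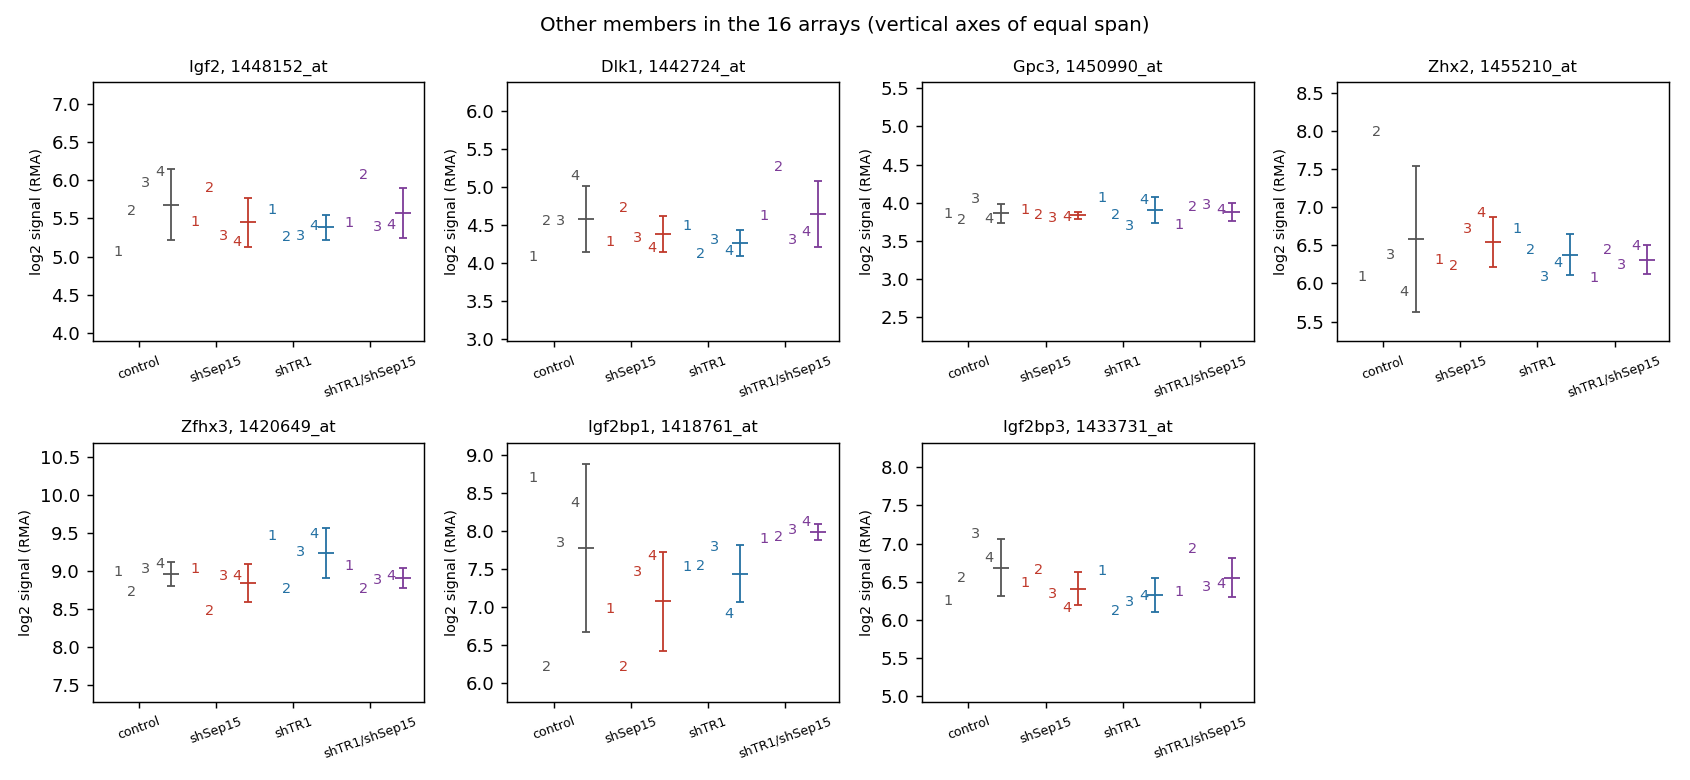
Log2 signal of the brightest probe set of Igf2, Dlk1, Gpc3, Zhx2, Zfhx3, Igf2bp1 and Igf2bp3 (vertical axes, of equal span) in the 4 lines (horizontal axes). Digits are replicate numbers and bars are means with SD (n = 4). The lines overlap in all panels except for Igf2bp1, where shTR1/shSep15 lies above shSep15 and shTR1, and control replicate 2 is high in Zhx2 and low in Igf2bp1.

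Over the 22 probe sets of the members other than Afp, none passed the adjusted threshold of limma in any comparison. In shSep15 against control cells 1.97% of all probe sets passed, and 0 of the 22 did, or 0 at an unadjusted p under 0.05, which 12.7% of all probe sets met. In shTR1 against control cells 0.18% of all probe sets and none of the 22 passed, with 1 of the 22 (Zfhx3 1449947_s_at) against 11.8% of all at an unadjusted p under 0.05. None of the 22 was free of overlap there, against 4.22% of all. In shTR1/shSep15 against control cells 0.0244% of all probe sets passed, 8.14% met an unadjusted p under 0.05, and none of the 22 did either. The shares were 2.66% between shSep15 and shTR1/shSep15 cells, 0.0733% between shTR1 and shTR1/shSep15 cells and 2.85% for the departure from additivity, with 0, 1 and 1 of the 22 at an unadjusted p under 0.05 against 13.3%, 10.4% and 16% of all. The unmoderated test of the study's methods gave 0 of the 22 after adjustment in each comparison, and before adjustment 1 in shTR1 against control and 1 in shTR1 against shTR1/shSep15 cells.

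The median difference of these 22 probe sets from control was −0.12 in shSep15 cells, −0.20 in the shTR1 arrays and −0.05 in shTR1/shSep15 cells, beside −0.03, −0.04 and −0.01 over all probe sets. Between shSep15 and shTR1/shSep15 cells 1 of the 22 did not overlap (Igf2bp1, lower in shSep15 cells), where 7.11% of all probe sets were lower without overlap. Between shTR1 and shTR1/shSep15 cells 1 was higher in the shTR1 arrays without overlap (Zfhx3), as were 4.66% of all probe sets, and 1 lower (Igf2bp1), as were 3.41%. Each is 1 of 22 and near or under the share of all probe sets.

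**Figure D3:**
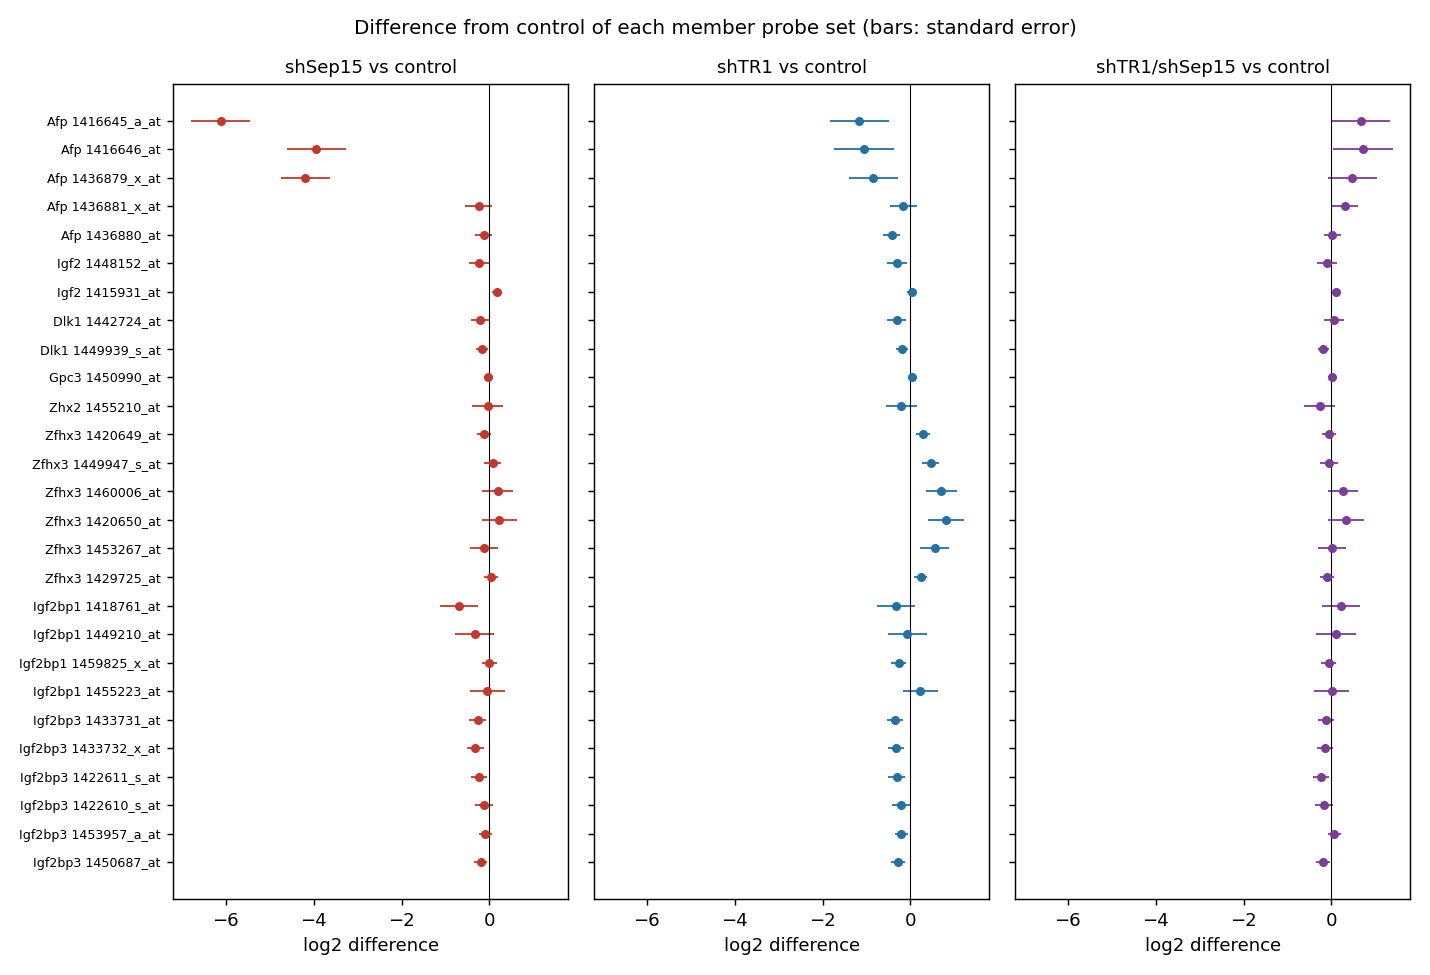
Log2 difference from control (horizontal axis) of each of the 27 member probe sets (vertical axis) in shSep15 (left), shTR1 (middle) and shTR1/shSep15 cells (right). Points are differences of the means of 4 arrays and bars their standard errors from the limma fit. Only 3 Afp probe sets lie far from 0 in shSep15 cells, at −6.11, −3.94 and −4.19.

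The relatives and products that accompany alpha-fetoprotein in fetal liver passed the test in no comparison. Albumin (Alb) was at 3.60 in control and 3.58 in shSep15 cells, and afamin (Afm) at 5.78 and 5.79. Of 16 plasma proteins of fetal liver and yolk sac measured (apolipoproteins, fibrinogens, transthyretin and others), 0 passed the test in any comparison, beside 0.0385% to 3.80% of all genes. In shSep15 against control cells 1 was lower at an unadjusted p under 0.05, beside 12.7% of all probe sets. The mean signal of 11 of the 16 lay under the median of all probe sets (4.52), where a fall as large as that of Afp could not show. Their median difference from control was −0.11 in shSep15 cells, −0.18 in the shTR1 arrays and −0.03 in shTR1/shSep15 cells, beside −0.02, −0.03 and 0.01 over all genes. Gc was not analysed here.

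Factors that act on the Afp gene were also measured. Of 14 activators (forkhead, C/EBP, GATA and other factors), 0 passed in any comparison, beside 0.0385% to 3.80% of all genes. In shSep15 against control cells 2 were lower at an unadjusted p under 0.05, a limit that 12.7% of all probe sets met. The mean signal of 6 of the 14 lay under the median of all probe sets. Foxa1, a pioneer forkhead factor, had a mean of 8.34 ± 0.86 (SD, n = 4) in control and 7.43 ± 0.51 (SD, n = 4) in shSep15 cells (adjusted p = 0.25, limma). Its mean was 7.67 ± 0.35 (SD, n = 4) in shTR1/shSep15 cells, and whether Foxa1 bears on Afp was not tested. Of 7 repressors, Zhx2 and Zfhx3 included, 0 passed in any comparison, beside 0.0385% to 3.80% of all genes. At an unadjusted p under 0.05, 1 was higher in shSep15 and 1 in shTR1 against control cells, beside 12.7% and 11.8% of all probe sets. For the departure from additivity 1 was above and 1 below 0 at that limit, beside 16% of all probe sets. In shSep15 against control cells 5 had a lower and 2 a higher mean, with a median difference of −0.04. Nr2f2, a nuclear receptor named after its values were seen, was at −0.52 there (adjusted p = 0.469, limma) and at −0.89 against shTR1/shSep15 cells (adjusted p = 0.106, limma). Zbtb20, which represses Afp in adult liver, was at 7.38 ± 0.30 (SD, n = 4) in control, 7.97 ± 0.36 (SD, n = 4) in shSep15, 8.09 ± 0.37 (SD, n = 4) in shTR1 and 7.49 ± 0.40 (SD, n = 4) in shTR1/shSep15 cells. Zbtb20 and Zhx1 were the 2 with a higher mean in shSep15 cells. The Zbtb20 differences from control of 0.59 and 0.70 did not pass the test (adjusted p = 0.288 and 0.265, limma), nor did the departure from additivity of −1.19 (adjusted p = 0.0764, limma).

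Among 36 imprinted genes, Igf2 and Dlk1 included, 0 passed in any comparison, beside 0.0385% to 3.80% of all genes. In each comparison at most 1 was higher and at most 1 lower at an unadjusted p under 0.05. Of all probe sets, 8.14% to 16% met this limit, both directions counted together. The mean signal of 19 of the 36 lay under the median of all probe sets. Their median difference from control was −0.05 in shSep15 and −0.14 in shTR1 cells. Among 10 genes of the oncofetal RNA-binding and let-7 axis 0 passed as well, beside the same shares of all genes. Hmga2, a let-7 target and chromatin protein of the embryo, was at 9.99 in control, 10.40 in shSep15, 10.84 in shTR1 and 10.46 in shTR1/shSep15 cells, and the line means of the dim Lin28b lay between 2.22 and 2.46.

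In the pathways of the members, single genes passed. In the Dlk1 and Notch list of 15 genes, the receptor Notch2 rose in shSep15 against control cells by 1.30 (standard error 0.19, adjusted p = 0.0026, limma), and 2.72% of all genes passed there. The departure from additivity of Notch2 was −1.62 (adjusted p = 0.00606, limma). It was also higher in shSep15 than in shTR1/shSep15 cells by 0.85 (adjusted p = 0.028, limma), which did not pass with the replicate number as a block (adjusted p = 0.0531) or without any 1 shSep15 array or shTR1/shSep15 replicate 2, 3 or 4 (adjusted p = 0.0507 to 0.0968). Neither Dlk1 nor the other ligands passed in these comparisons.

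Of 8 glypicans and heparan sulphate sulphatases, 0 passed against control cells, beside 0.0385% to 2.72% of all genes. Gpc1, named after its values were seen, was lower in shSep15 than in shTR1/shSep15 cells by 1.35 (−1.35, standard error 0.28, adjusted p = 0.0184, limma). It did not pass with the replicate number as a block (adjusted p = 0.0513) or without shSep15 replicate 1 or 3 or shTR1/shSep15 replicate 3 or 4 (adjusted p = 0.0535 to 0.0598). In the list of 8 insulin-like growth factor ligands and receptors, Insr, the insulin receptor, named like Gpc1 after its values were seen, had a departure from additivity of −1.32 (adjusted p = 0.0287, limma), which did not pass without control replicate 3, shSep15 replicate 3 or 4, shTR1 replicate 3 or 4, or shTR1/shSep15 replicate 1 or 2 (adjusted p = 0.0501 to 0.0694). Irs1, named likewise, was higher in shTR1 than in control cells by 1.88 without passing (adjusted p = 0.138, limma).

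Of 12 other fetal or embryonic antigens, 0 passed against control cells, beside 0.0385% to 2.72% of all genes. At an unadjusted p under 0.05, 3 of the 12 were higher in shTR1/shSep15 than in control cells, a limit that 8.14% of all probe sets met there. Since only 0.0385% of all genes passed in that comparison, the 0 says little. Tnc, the matrix protein tenascin C, again named after its values were seen, was at 3.83 ± 0.48 (SD, n = 4) in control, 3.38 ± 0.21 (SD, n = 4) in shSep15, 4.38 ± 1.60 (SD, n = 4) in shTR1 and 6.99 ± 0.35 (SD, n = 4) in shTR1/shSep15 cells. Tnc was lower in shSep15 than in shTR1/shSep15 cells by 3.61 (−3.61, standard error 0.56, adjusted p = 0.00312, limma). Against control cells Tnc had the largest difference of the list in shTR1/shSep15 cells, 3.17, which did not pass. Cldn6, a claudin of embryonic epithelia, was at 6.24 in control, 7.34 in shSep15, 8.002 in shTR1 and 8.25 in shTR1/shSep15 cells, and did not pass against control in any line. None of the fetal gene lists held a gene that passed in shSep15 against control cells other than Notch2.

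The neighbours of Afp on chromosome 5 were read in the order of the RefSeq annotation, Alb, Gm9958, Ankrd17 and Cox18 before and Afm, Albfm1, Rassf6 and Cxcl5 after it. None of these 8 passed in any line against control, where 0.0385% to 2.72% of all genes did. Their differences ran from −0.58 to 1.02 in shSep15 cells. Albfm1, an albumin superfamily member, was at 4.33 ± 0.22 (SD, n = 4) in control, 5.35 ± 0.45 (SD, n = 4) in shSep15, 6.19 ± 1.29 (SD, n = 4) in shTR1 and 4.53 ± 0.15 (SD, n = 4) in shTR1/shSep15 cells. Its departure from additivity of −2.68 passed (adjusted p = 0.0366, limma) and had the opposite sign to that of Afp. That call did not hold in 15 of 25 alternatives, among them each array left out other than control replicate 2, shSep15 replicate 2 and shTR1 replicates 1 and 3 (adjusted p = 0.0532 to 0.0881) and shTR1 replicates 2 and 4 left out together (adjusted p = 0.160). Around H19 and Igf2, around Dlk1 and around Gpc3, 0 of 8 neighbours each passed against control, beside the same shares of all genes. Slc25a47, a mitochondrial carrier gene near Dlk1, had a departure of 0.95 (adjusted p = 0.0106, limma), which did not pass without shTR1 replicates 2 and 4 (adjusted p = 0.0642).

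The genes with the profile most like that of Afp were sought among 3008 genes whose SD over the 16 arrays was at least 0.5. They were Ube2a (r = 0.96), a ubiquitin-conjugating enzyme, Chst11 (r = 0.94), a chondroitin sulphotransferase, Pxn (r = 0.94), the focal adhesion protein paxillin, Krt20 (r = 0.94), an intestinal keratin, and Napsa (r = 0.91), an aspartic protease. The correlations are a description over 16 arrays in 4 lines that share the low shSep15 values. Krt20 held 5.22, 4.79, 4.76 and 5.32 in shSep15 cells and 8.04, 9.49, 7.55 and 8.13 in control cells. It held 9.24, 7.40, 7.83 and 7.15 in shTR1 arrays and 9.06, 8.38, 8.88 and 7.95 in shTR1/shSep15 cells. Like Afp, Krt20 was highest in replicate 1 among the shTR1 arrays. Opposite profiles were those of B230307C23Rik (r = −0.95), Zzz3 (r = −0.93) and Polr3c (r = −0.92). The other members were less like Afp, with r from −0.02 (Zhx2) to 0.46 (Igf2bp1).

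**Figure D4:**
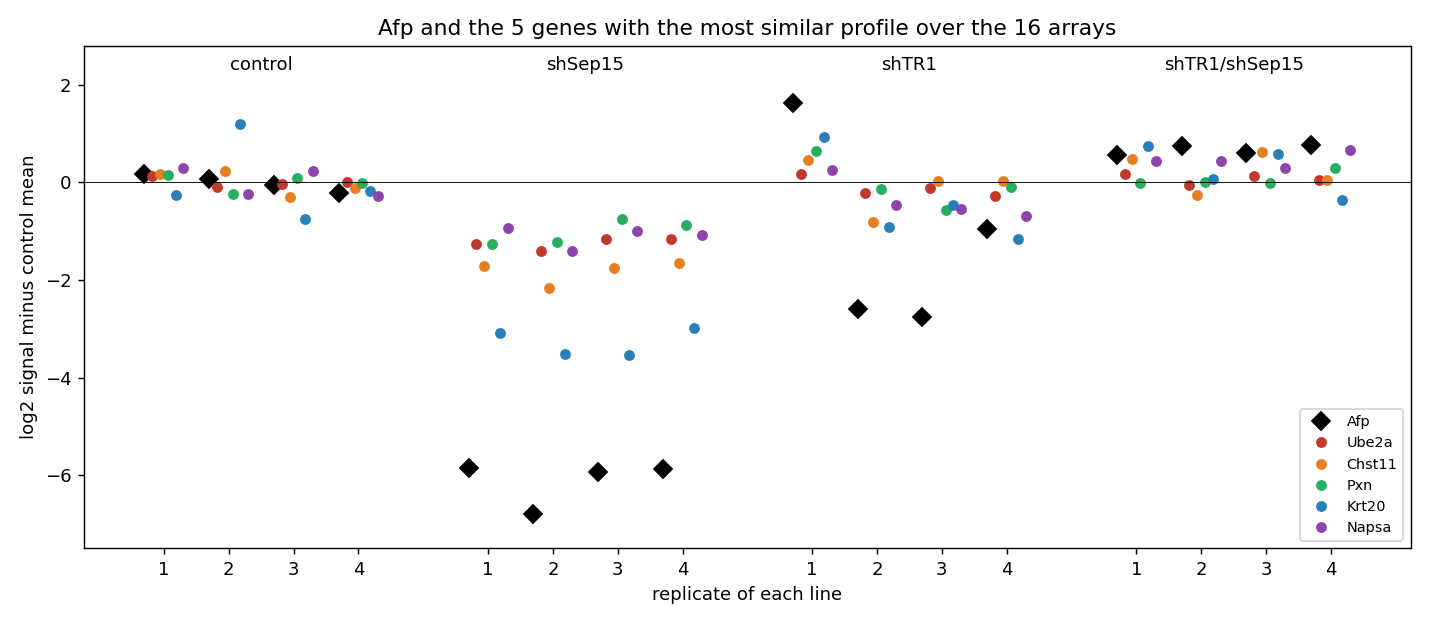
Log2 signal minus the mean of the control arrays (vertical axis) of Afp (black diamonds) and of Ube2a, Chst11, Pxn, Krt20 and Napsa (circles) in each replicate of the 4 lines (horizontal axis). All 6 genes are lowest in the shSep15 arrays, Afp at about 6 below control and Krt20 next, and all 6 are at or above the control mean in shTR1 replicate 1.

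Markers of cell types were read beside Afp. Of 12 colonic epithelial markers, 2 passed against control, where 2.72% of all genes did, both lower in shSep15 cells, Krt20 by 3.28 (−3.28, adjusted p = 0.00155, limma) and Krt18, a keratin of simple epithelia, by 2.68 (−2.68, adjusted p = 0.039, limma). Krt18 did not pass without any 1 array of control, shSep15 or shTR1/shSep15 cells or shTR1 replicate 4 (adjusted p = 0.0508 to 0.129). The mean signal of the 12 markers was 4.61 to 5.11 in control, 4.17 to 4.38 in shSep15, 4.56 to 5.15 in shTR1 and 4.78 to 5.02 in shTR1/shSep15 cells. This mean includes Krt20 and Krt18, and the median difference of the list in shSep15 against control cells was −0.18, beside −0.02 over all genes. The mean signal of 6 of the 12 lay under the median of all probe sets. E-cadherin (Cdh1) and the gut factors Cdx1 and Cdx2 are on the list and did not pass. Their part in the low Afp signal was not tested.

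Of 9 mesenchymal markers, 5 had a lower and 4 a higher mean in shSep15 than in control cells, with a median difference of −0.10. Of these, 2 passed, beside 2.72% of all genes, both lower in shSep15 cells, the collagen Col3a1 by 3.04 (−3.04, adjusted p = 0.0307, limma) and Zeb1, a repressor of epithelial genes, by 1.02 (−1.02, adjusted p = 0.0116, limma). Zeb1 did not pass in a fit to the compared lines alone (adjusted p = 0.122). Col3a1 did not pass without control replicate 1, 3 or 4 or shSep15 replicate 1, 3 or 4 (adjusted p = 0.0541 to 0.0985). The mean of the list was 8.03 to 8.59 in control, 7.58 to 7.99 in shSep15, 7.59 to 8.47 in shTR1 and 8.36 to 8.82 in shTR1/shSep15 cells. Of 7 leukocyte markers, Cd14 was lower in shSep15 than in control cells by 1.29 (−1.29, adjusted p = 0.0238, limma), which did not pass without control replicate 3 or 4 or shSep15 replicate 1 (adjusted p = 0.0514 to 0.0615). Of 10 hepatocyte markers, 0 passed against control, beside 0.0385% to 2.72% of all genes. The mean signal of 5 of them lay under the median of all probe sets. The mean of the list was 4.15 to 4.74 in control and 4.30 to 4.64 in shSep15 cells. Cps1, a urea cycle enzyme on that list named after its values were seen, was higher in shSep15 than in shTR1/shSep15 cells by 0.66 (adjusted p = 0.0116, limma). Afp was thus low in shSep15 cells beside Krt20, Krt18, Col3a1, Zeb1 and Cd14, single genes of lists whose other members did not pass against control. Only Krt20 among them passed against control in every alternative. No hepatocyte marker passed against control, and the part of these markers in the Afp result was not tested.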

How the data were processed

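The authors extracted total RNA with TRIzol, hybridized labelled cRNA to Affymetrix mouse arrays and deposited background-corrected, normalized log2 signals from Robust Multi-Array Analysis (RMA, per the labels; no version is given in the sources used here). The medians of the arrays were 4.45 to 4.58 and the upper quartiles 6.36 to 6.77. There is no count or depth, so precision rests on the 4 arrays of each line.

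Of 45101 probe sets, the 64 control probe sets were left out. Of the remaining 45037, 34945 carry 1 gene symbol, 932 several and 9160 none. For genes with several probe sets, the one brightest on average over all arrays was used outside the members. Each probe set was fitted with limma 3.58.1 (R 4.3.3) with a mean per line, moderated variances (2.58 prior beside 12 residual degrees of freedom) and Benjamini-Hochberg adjustment over all probe sets, with a threshold of 0.05. Departure from additivity is shTR1/shSep15 minus shSep15 minus shTR1 plus control. The fit was tested on simulated data. The smallest exact permutation p of 4 against 4 arrays is 0.0286. The members and lists were chosen with earlier results of these data known. Genes were named by a rule: all members, list genes past the threshold against control or defining for a list, the 5 most and 3 least similar profiles, and the neighbours in the annotation. Genes named outside it are marked where they stand. The promoter came from RefSeq. A probe set with several symbols was assigned to no gene.

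The deviations of same-numbered arrays correlated positively for every number only between shSep15 and shTR1/shSep15 cells, at 0.10 to 0.47. Single values of other pairs of lines reached 0.40. Nothing states what the numbers stand for, and no block was used in the main fit. Values from a fit with a block are named as such. Alternatives were bright probe sets alone, variances with an intensity trend, fits to the compared lines alone, median centring, quantile normalization, the ANOVA of the methods, the replicate block, each array left out, shTR1 replicates 2 and 4 left out, array weights, the mean over the probe sets of a gene and differences of medians.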

Additional observations from a re-analysis of the deposited data

Results flagged for a closer look

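Afp probe sets stood on opposite sides of the control arrays in shSep15 and in shTR1/shSep15 cells, being below all of them in shSep15 cells and above all of them in shTR1/shSep15 cells. The departure from additivity was 7.95 on 1416645_a_at, 5.71 on 1416646_at and 5.51 on 1436879_x_at, as differences of signals. On 1416645_a_at and 1436879_x_at the shSep15 signals were not shown to be above background, so that those values are at best lower bounds. Since Afp was picked for its low value in shSep15 cells, this difference was not tested.

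Single arrays stood far from the others of their line (Dixon's criterion, n = 4) in 9 of 108 groups of arrays, where chance alone flags about 1 in 20 groups, or 5.4. Afp 1416645_a_at was at 2.71 in shSep15 replicate 2, against 3.59 to 3.67 in the other shSep15 arrays. Afp 1436879_x_at was at 3.72 in shSep15 replicate 1, against 2.96 to 2.99. Afp 1436881_x_at was at 4.55 in control replicate 4, against 4.72 to 4.74. Igf2 1448152_at was at 6.07 in shTR1/shSep15 replicate 2, against 5.39 to 5.44. Zfhx3 was low in shSep15 replicate 2 on 1449947_s_at (8.13 against 8.89 to 8.96) and on 1460006_at (5.99 against 7.26 to 7.34). Igf2bp1 1459825_x_at was at 6.10 in shSep15 replicate 2, against 5.69 to 5.72. Igf2bp3 1422610_s_at was at 4.02 in control replicate 3, against 2.88 to 2.96, and Igf2bp3 1450687_at at 2.84 in shTR1/shSep15 replicate 2, against 2.55 to 2.60. Of the 9 arrays, 4 are shSep15 replicate 2 and 2 are shTR1/shSep15 replicate 2.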

How the results depend on the processing

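Counts of member probe sets past the threshold were 3 in shSep15 against control, 0 in shTR1 against control, 0 in shTR1/shSep15 against control, 3 in shSep15 against shTR1/shSep15, 0 in shTR1 against shTR1/shSep15 and 3 for the departure from additivity, those above 0 being the bright Afp probe sets, whose calls restate their choice, so that their stability supports nothing. Of 156 recomputed counts, 150 stayed within 1.5 times of these. In shTR1 against control the unadjusted ANOVA gave 1. In shTR1 against shTR1/shSep15 the unadjusted ANOVA gave 4 and array weights gave 3. With 1 array left out the counts were 3 to 4 in shSep15 against control, 0 to 3 in shTR1 against control, 3 in shSep15 against shTR1/shSep15, 0 to 3 in shTR1 against shTR1/shSep15 and 3 to 4 for the departure, and shTR1/shSep15 against control stayed at 0. The upper values came without shTR1 replicate 1 (Afp) and without control replicate 2 (Igf2bp1). With the replicate number as a block the counts were the main ones, 3, 0, 0, 3, 0 and 3, and in the fit to shSep15 and shTR1/shSep15 cells alone with this block, added after seeing the data, the count was 5, of which 1 was not Afp. Outside that pair of lines the same-numbered correlations ran from −0.53 to 0.40, so that arrays there share only a number. There the block ended the calls of Cd14 and Col3a1 in shSep15 against control (adjusted p = 0.0520 and 0.0540) and of Albfm1 for the departure (adjusted p = 0.0522).

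Of 1332 differences of member genes recomputed, none changed direction where it was called. Only Afp was called, so that this restates its choice. There were 6 that passed newly, 5 of them given with the results and the other being Afp in shTR1 against shTR1/shSep15 by the unadjusted ANOVA. A further 8 moved by more than the spread within lines, all 8 with the mean over the probe sets of a gene. Under it Afp differed from control by −2.92 in shSep15 cells. Of 573 recomputed differences of other genes past the threshold, 80 no longer passed. By the ANOVA with adjustment Krt18, Col3a1 and Cd14 did not pass in shSep15 against control (adjusted p = 0.0944, 0.0762 and 0.0584). Nor did Notch2 in shSep15 against shTR1/shSep15 (adjusted p = 0.0602) or Insr and Albfm1 for the departure (adjusted p = 0.0613 and 0.0832). Median centring moved the median of all genes by at most 0.06, and turned the sign of list medians that lay near 0, such as that of fetal plasma proteins in shTR1/shSep15 cells (−0.03 to 0.02). The cause of these changes was not tested. The number of arrays and, for dim probe sets, the background signal limit the precision.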
